A study of Drosophila melanogaster with 3 samples.

Results

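The segment polarity genes wg, hh, en, inv and nkd were examined for binding by Zelda (ZLD), the zinc-finger protein that activates the first genes of the Drosophila melanogaster embryo. Their ZLD sites were chosen by position and by measured values: a site is a peak of any of the 3 deposited peak lists whose interval midpoint fell in a window around a gene, with midpoints no more than 150 bp apart joined into 1 site. On the dm3 assembly the windows ran over chr2L:7295000-7330000 for wg, chr3R:18935000-18980000 for hh, chr2R:7355000-7430000 for the neighbours inv and en, and chr3L:19000000-19055000 for nkd. They held 48 of the 16200 joined sites of the genome, of which 9 lay at wg, 16 at hh, 13 at inv and en, and 10 at nkd. Because a site had to be a called peak in at least 1 library and the genes were picked with binding values known, the coverage of these sites is given as a description and without a test.

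Segment polarity genes set the front and the back of each body segment and act after the pair-rule genes in the segmentation hierarchy. In each segment a row of cells with the Engrailed protein makes the secreted signal Hedgehog, the row next to it makes the secreted signal Wingless, and the signals maintain each other across the boundary. These genes are switched on around cellularization, in cycle 14 and later. ZLD binds short DNA elements known as TAGteam sites and occupies many regions well before the genes nearby are transcribed.

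The embryos were wild type, of the strain Oregon R, and were sorted by hand under the microscope into pools that each held a mix of adjacent mitotic cycles. The cycle 8 pool held mitotic cycles 8 to 9, the cycle 13 pool held cycles 13 to 14, and the late cycle 14 pool held late mitotic cycle 14. Chromatin of whole embryos (3.7, 6.6 and 6 µg in that order) was precipitated with affinity-purified rabbit anti-ZLD antibodies from which those binding the zinc fingers had been removed. There was 1 library per stage, so that every difference between stages is a difference between 2 libraries, with no replicate check. In whole embryos, binding in fewer nuclei and weaker binding per nucleus cannot be told apart.

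The files held 13496488 mapped reads at cycle 8, 18870755 at cycle 13 and 17481411 in late cycle 14. Binding is given as coverage, the number of reads extended to 150 bp that lie over the centre of a site, scaled to 10000000 reads per library; 1 read is then worth 0.741, 0.530 and 0.572. Background, the median over positions of the chromosome arms, came to 4.45 at cycle 8, 3.71 at cycle 13 and 3.43 in late cycle 14, and the median over all 16200 sites was 88.2, 85.3 and 75.5. Many reads are copies that start at the same place: within 300 bp around the sites of the 5 genes, distinct starts made up 22.3% of reads at cycle 8, 32.4% at cycle 13 and 26.6% in late cycle 14. Over the whole libraries they made up 23.4%, 50.9% and 41.0%, or 3160282, 9597918 and 7165640 reads. The cycle 8 library thus held the fewest distinct reads, which limits every comparison with it. Where copies are counted once below, coverage is scaled to these distinct totals. All intervals below are exact 95% intervals (Poisson for coverage, binomial for ratios) and cover counting error only. Every copy counts as a separate read in them, so they are narrower than distinct reads alone would give.

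ZLD coverage at the segment polarity genes was mostly higher at the later stages. In late cycle 14, 36 of the 48 sites had at least 2-fold more coverage than in cycle 8, and 8 had at least 2-fold less. Over all 16200 sites the same bounds were passed by 34.3% upward and 39.6% downward. The median log2 ratio was 1.93 over the 48 sites and -0.19 over all sites. Most of this difference was present by cycle 13, when 34 sites were higher by 2-fold or more than in cycle 8 and 6 were lower, against 32.1% and 26.3% of all sites, with a median log2 ratio of 1.5 over the 48 sites and 0.19 over all. Late cycle 14 differed much less from cycle 13: 4 sites were higher and 4 lower by 2-fold or more, against 4.04% and 25.7% of all sites, and the medians were 0.32 and -0.29. The 4 higher sites became 10 when libraries were scaled by the median of ratios over all sites and 1 when copies were counted once. At 42 of the 48 sites (87.5%) the cycle 13 value was intermediate, against 77.9% of all sites.

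The summed coverage of every locus was higher in late cycle 14 than in cycle 8. At wg it was 1282 at cycle 8, 4130 at cycle 13 and 5698 in late cycle 14, a log2 ratio of late cycle 14 over cycle 8 of 2.15 (2.08 to 2.23). At hh it was 1557, 2714 and 3025, with a log2 ratio of 0.96 (0.89 to 1.03). The inv and en window held the least, 629, 1808 and 1985, with a log2 ratio of 1.66 (1.55 to 1.77). Coverage was greatest at nkd, with 3089, 6437 and 8270 and a log2 ratio of 1.42 (1.37 to 1.47). With copies included, the difference from cycle 8 was therefore largest at wg and smallest at hh. The intervals of the 4 ratios did not overlap, but they take every copy as a separate read and hold no spread between libraries. With copies counted once, the log2 ratios were 0.86 at wg, 0.61 at hh, 1.61 at inv and en and 0.28 at nkd, so that their order changed. A position can then hold at most 300 reads, and 14 of the 48 sites held 200 or more in late cycle 14, against 1 at cycle 8.

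**Figure D1:**
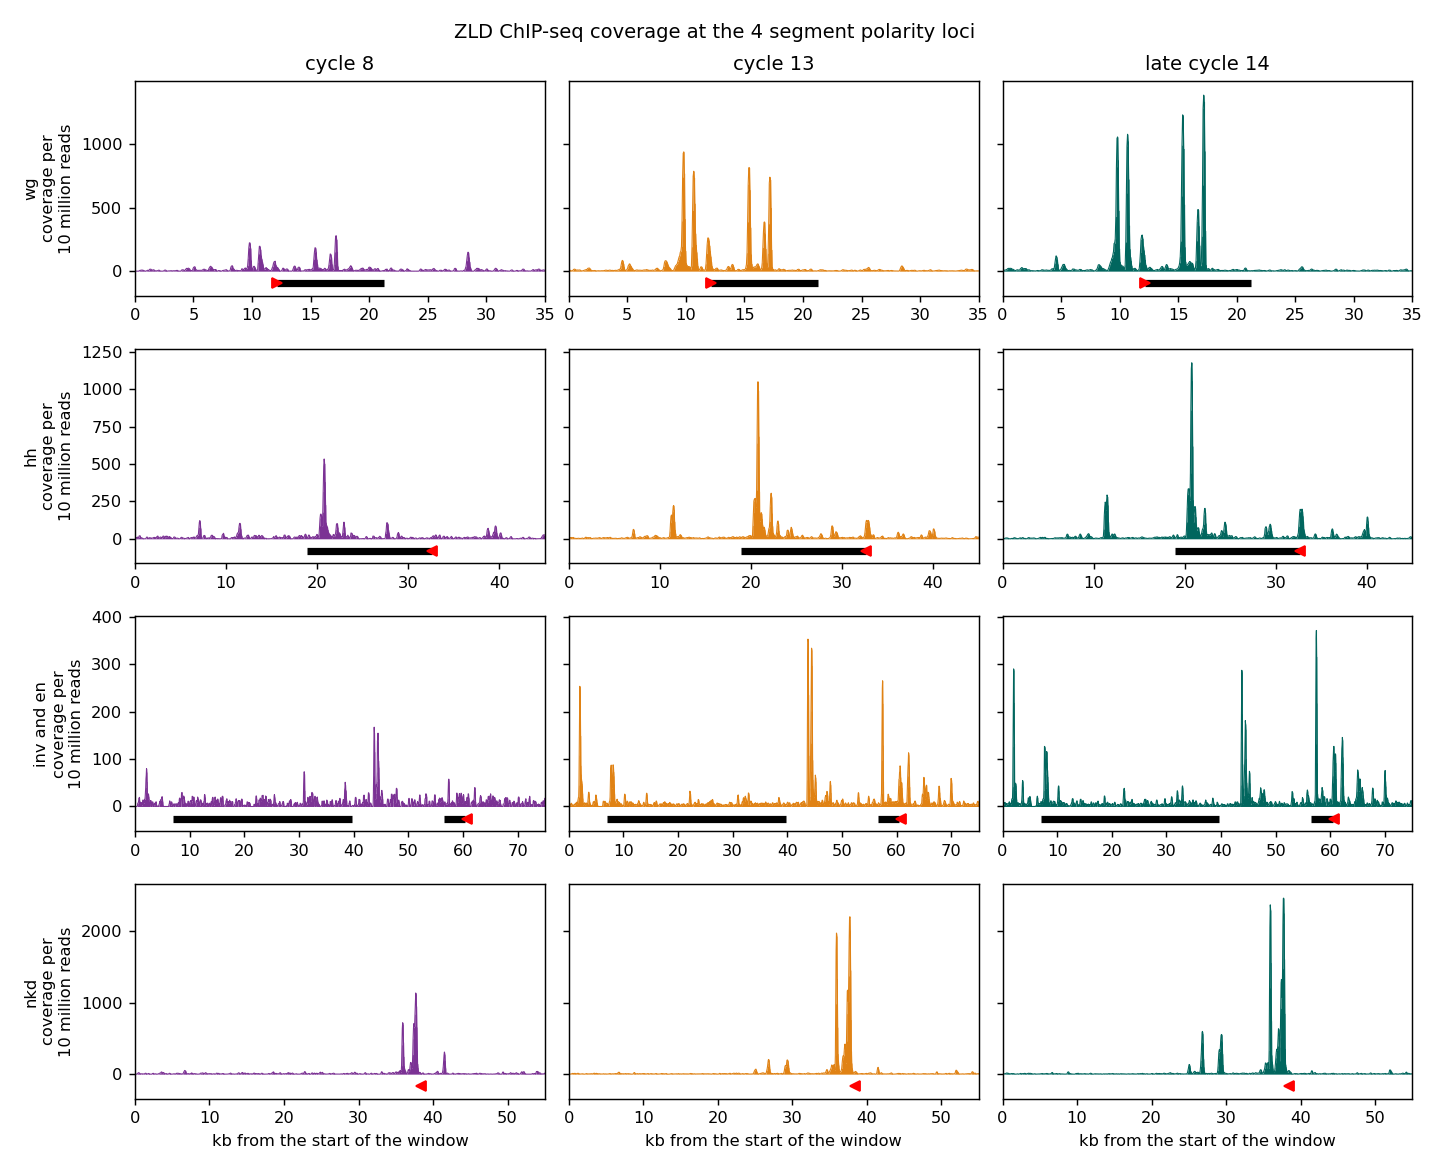
ZLD coverage per 10000000 reads (vertical axis, the highest value of each 50-bp bin, same scale within a row) across the 4 windows (horizontal axis, kb from the window start) at each stage (columns, cycle 8 at the left). Black bars are the annotated genes and red arrowheads their starts, where these were at hand. The bins of wg reach up to 279 at cycle 8 and up to 1387 in late cycle 14, and those of nkd up to 1134 at cycle 8 and up to 2460 in late cycle 14.

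Membership of the peak lists followed the same course. Of the 48 sites, 24 were in the cycle 8 list, 37 in the cycle 13 list and 39 in the late cycle 14 list, or 50%, 77.1% and 81.3%, while the same lists held 70.2%, 64.6% and 58.2% of all 16200 sites. All 3 lists held 16 of the 48 sites (33.3%), against 31.8% of all sites. Only the cycle 8 list held 5 of them (10.4%, against 26.2% of all sites), and only the late cycle 14 list held 6 (12.5%, against 8.94%). Of these 6, 1 (19037432 at nkd) had its centre inside a wider peak of the cycle 8 and cycle 13 lists. A site taken from the cycle 8 list alone had to be high at cycle 8, so the lists also shape the ratios. Among the 24 sites of the cycle 8 list, 14 were higher and 8 lower by 2-fold or more in late cycle 14, where 14.9% and 55.8% of all sites of that list were. Among the other 24 sites 22 were higher and 0 lower, where 80.0% and 1.64% of all such sites were.

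wg encodes the Wingless ligand of the Wnt family. The gene spans chr2L:7307160-7316255 and is read towards higher coordinates. Its 4 strongest sites formed 2 pairs, 1 upstream of the start and 1 inside the gene. The upstream pair, labelled intergenic, lay at 7304804, 2356 bp before the start, and at 7305681, 1479 bp before it. Coverage at 7304804 was 222 at cycle 8, 940 at cycle 13 and 1055 in late cycle 14, and at 7305681 it was 191, 786 and 1078. The intronic pair lay at 7310397, with 184, 814 and 1229, and at 7312173, with 270, 738 and 1385. Inside the gene between those 2 lay a weaker site at 7311699, with 135, 385 and 481.

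All 5 of these wg sites were in the 3 lists, and all 5 were higher by 2-fold or more in late cycle 14 than in cycle 8. With copies counted once, the log2 ratios were 0.86 at 7304804 and 0.71 at 7312173, under 2-fold, and between 1.0 and 1.15 at the other 3. The log2 ratios of late cycle 14 over cycle 8 ran between 1.83 at 7311699 and 2.74 (2.55 to 2.94) at 7310397, the largest of the locus. At 7310397 and 7312173 coverage still differed between the later stages, by log2 ratios of late cycle 14 over cycle 13 of 0.59 and 0.91, while at 7304804 that ratio was 0.17. The order of the sites thus changed with the stage: 7312173 was highest at cycle 8 and in late cycle 14, and 7304804 was highest at cycle 13.

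The site nearest the wg start, at 7306903 and 257 bp upstream, had 71.1 at cycle 8, 261 at cycle 13 and 285 in late cycle 14, a log2 ratio of late cycle 14 over cycle 8 of 2.0 (1.68 to 2.33). It was weaker at each stage than the upstream pair and the intronic sites. Farther upstream, 7299592 had 19.3, 84.8 and 120, and 7303263 had 41.5, 82.1 and 50.3. The site at 7303263 was in the cycle 13 list only and was the only wg site within 2-fold between cycle 8 and late cycle 14 (log2 ratio 0.28, -0.22 to 0.79).

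A single wg site went the other way. At 7323443, 7188 bp beyond the end of the gene, coverage was 148 at cycle 8, 39.7 at cycle 13 and 13.7 in late cycle 14, and only the cycle 8 list held a peak there. The log2 ratio of late cycle 14 over cycle 8 was -3.43 (-4.11 to -2.82). At cycle 8 this site was thus about as high as the wg site at 7311699, and in late cycle 14 it was 4.0 times the median of the arms.

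**Figure D2:**
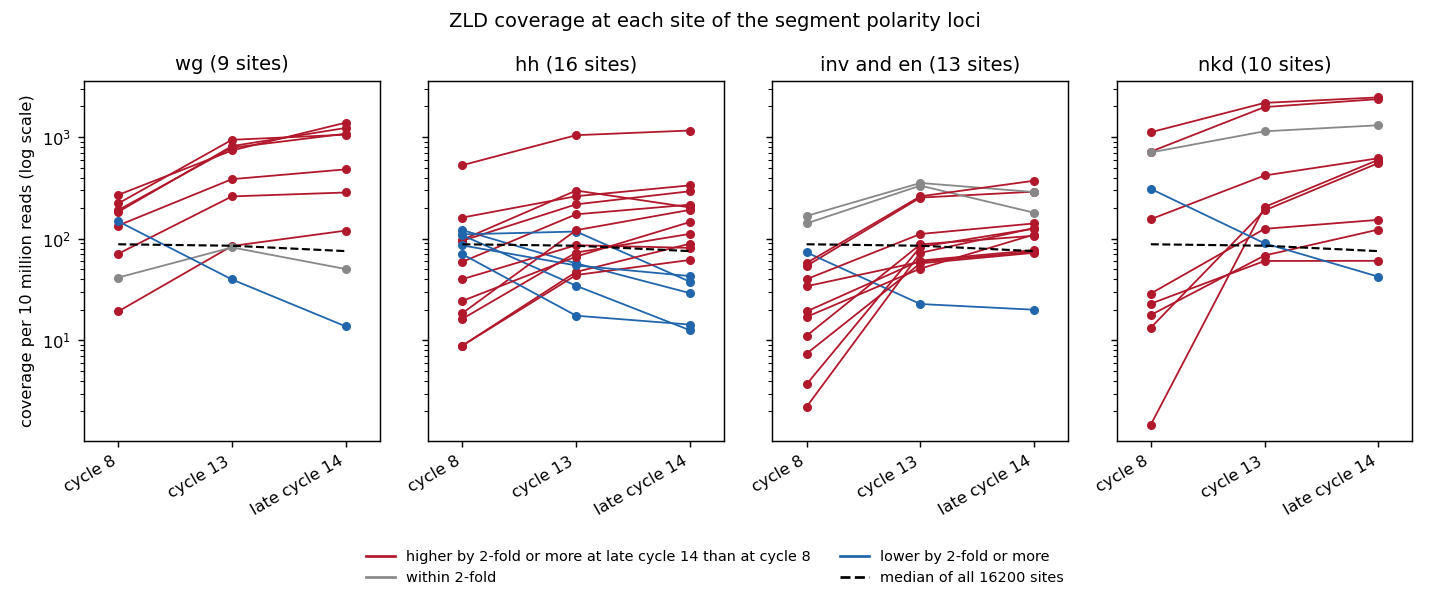
Coverage per 10000000 reads on a log scale (vertical axis) at each of the 48 sites, by stage (horizontal axis) and locus (panels); each line joins the 3 values of 1 site, and the dashed line is the median of all 16200 sites. Red lines mark the 36 sites at least 2-fold higher in late cycle 14 than in cycle 8, blue the 8 sites at least 2-fold lower and grey the 4 between. Of the 8 lower sites, 5 are at hh.

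hh encodes the Hedgehog ligand. The gene spans chr3R:18953890-18967628, is read towards lower coordinates and held 9 of the 16 sites. One intronic site stood far above the others: at 18955775, 11853 bp downstream of the start, coverage was 529 at cycle 8, 1043 at cycle 13 and 1160 in late cycle 14. It took 34.0% of the summed coverage of the locus at cycle 8, 38.4% at cycle 13 and 38.3% in late cycle 14. The log2 ratio of late cycle 14 over cycle 8 was 1.13 (1.01 to 1.26). With copies counted once it was -0.13, scaled to the distinct reads of each library, 7165640 in late cycle 14 and 3160282 at cycle 8. Of the at most 300 reads that a position can then hold, this site held 286 in late cycle 14, against 138 at cycle 8.

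Several weaker hh sites flanked the strong one. At 18955412, 363 bp away, coverage was 162, 262 and 335 in order of stage, and at 18956130, 355 bp away on the other side, it was 59.3, 174 and 216. The peak heights of the deposited lists were lower there, 111, 186 and 221 at 18955412. At 18956130 they were 78.3 at cycle 13 and 95.4 in late cycle 14. At the strong site they were close to coverage, 525, 1041 and 1176. Coverage at these 2 flanking centres may thus include reads of the strong site, which was not tested. At 18957218 coverage was 97.8 at cycle 8, highest at cycle 13 with 298, and 203 in late cycle 14. Beyond the 3' end of the gene, 18946492 had 95.6, 218 and 293. Together these sites had log2 ratios of late cycle 14 over cycle 8 of 1.05 to 1.87 at their centres. Over 300 bp the ratios were 0.91 at 18956130 and 0.83 at 18957218, under 2-fold, and 1.36 at 18955412 and 1.66 at 18946492.

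The site at the hh start had the largest ratio of the locus. It lay at 18967714, 86 bp upstream of the start, with 18.5 (12 to 27.3) at cycle 8, 121 at cycle 13 and 192 in late cycle 14, a log2 ratio of late cycle 14 over cycle 8 of 3.38 (2.79 to 4.02). It was in the later 2 lists and not in the cycle 8 list. Similar ratios were found at 18964348 inside the gene (8.89, 47.2 and 89.2 in order of stage, log2 ratio 3.33), and at 18971179 upstream (8.89, 44.0 and 61.8, log2 ratio 2.80). All 3 sites near or upstream of the start that were higher had 8.89 to 24.5 at cycle 8, under 10 times the median of the arms.

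hh also held 5 of the 8 sites that were lower by 2-fold or more. At 18942136 coverage was 122 at cycle 8, 57.2 at cycle 13 and 29.2 in late cycle 14. Inside the gene, 18957950 had 110, 118 and 37.8, so that it differed only in late cycle 14, and 18962678 had 108, 34.4 and 12.6. The lowest log2 ratio of late cycle 14 over cycle 8 was that of 18962678, -3.10 (-3.82 to -2.45). Upstream of the start, 18973780 had 70.4, 17.5 and 14.3, and 18974596 had 85.9, 54.6 and 42.9. The site at 18974596 sat on the 2-fold bound, with -1.0 (-1.44 to -0.57), and over 300 bp its log2 ratio was -0.31. The site at 18957950 came to -1.55 at its centre and to -1.0, just inside the bound, over 300 bp.

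Sites that differed in opposite directions lay close together at hh. The lower site at 18974596 was 464 bp from 18975060, which had 24.5, 66.8 and 146 in order of stage and a log2 ratio of 2.58. The lower site at 18957950 was 732 bp from 18957218 and 1467 bp from 18959417, which had 16.3, 73.1 and 112. The summed log2 ratio of 0.96 at hh therefore holds 11 higher and 5 lower sites.

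**Figure D3:**
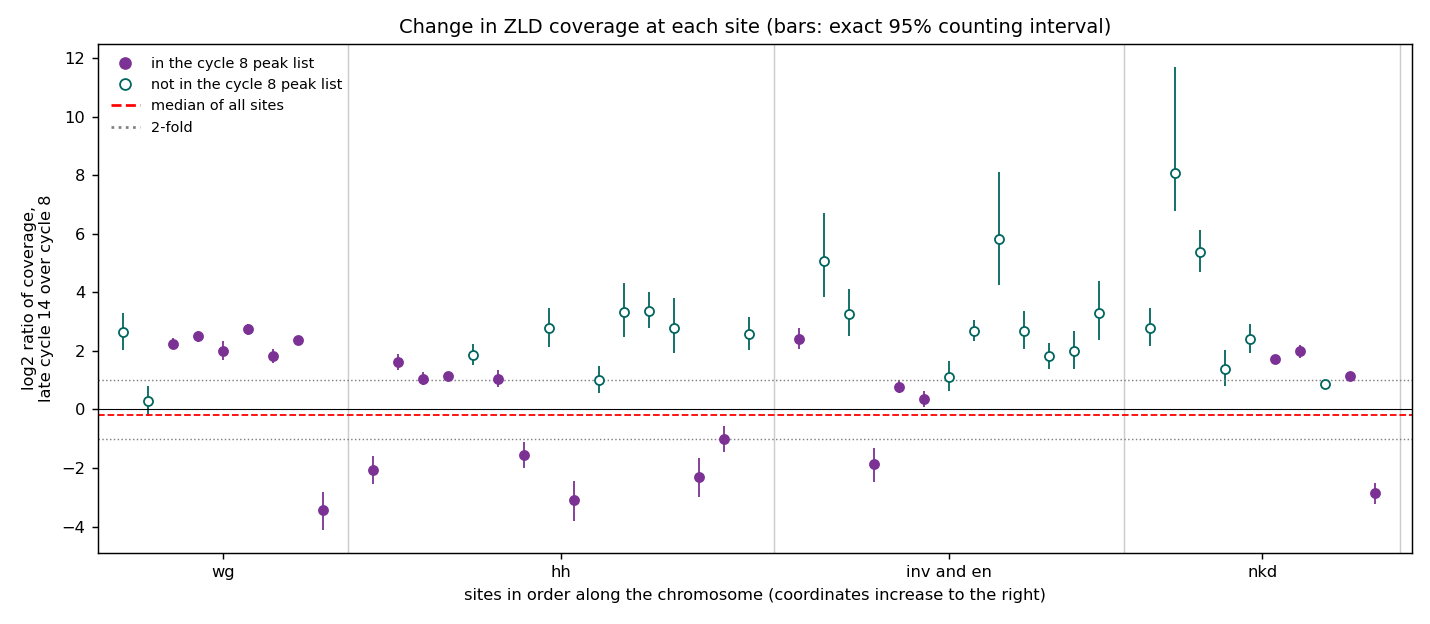
The log2 ratio of coverage, late cycle 14 over cycle 8 (vertical axis), at each of the 48 sites in order along each locus (horizontal axis); bars are exact 95% counting intervals, filled points are sites of the cycle 8 list and open points the other sites. The dashed line is the median of all sites, -0.19, and the dotted lines mark 2-fold. All 8 sites below the lower dotted line are filled, and the 2 points with the largest ratios, 8.07 at nkd and 5.84 at en, rest on 2 reads (taken as 3) and 3 reads at cycle 8.

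en and inv encode closely related homeodomain transcription factors and lie side by side. On dm3, inv spans chr2R:7361969-7394688 and en chr2R:7411508-7415388, with the en start used here at 7415715 and transcription towards lower coordinates. That start lies outside the en span. It was placed from the study's distance between a peak and the en start, with the side of the peak inferred. Their window held the lowest coverage of the 4 loci: its sites reached at most 167 at cycle 8 and 372 in late cycle 14. Only 4 of the 13 sites were in the cycle 8 list, 9 were in the cycle 13 list and 12 in the late cycle 14 list. The direction of transcription of inv was not used here, so its sites are placed by the ends of the gene.

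The strongest pair of this window lay between the genes, beyond the end of inv that faces en. At 7398780, 4092 bp from that end, coverage was 167 at cycle 8, 353 at cycle 13 and 288 in late cycle 14, and at 7399439, 659 bp further on, it was 142, 333 and 180. Both were highest at cycle 13. The log2 ratios of late cycle 14 over cycle 8 were 0.78 (0.55 to 1.01) and 0.35 (0.08 to 0.62), so that these were the only sites of the window within 2-fold.

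The en gene itself was covered mainly at the later stages, and none of its sites was in the cycle 8 list. At 7412409, inside en and 3306 bp downstream of the start, coverage was 57.8 at cycle 8, 261 at cycle 13 and 372 in late cycle 14, the highest of the window at that stage. The log2 ratio of late cycle 14 over cycle 8 was 2.69 (2.35 to 3.04). The site nearest that start was at 7415607, 108 bp downstream of it and 219 bp beyond the end of the en span. Its coverage was 2.22 (3 reads, 0.46 to 6.50) at cycle 8, 72.6 at cycle 13 and 127 in late cycle 14. Its log2 ratio at the centre, 5.84 (4.27 to 8.12), rests on those 3 reads and was 3.22 over 300 bp. The 4 sites upstream of en, at 7415898, 7417178, 7419998 and 7424979, had 7.41 to 40.0 at cycle 8, 50.9 to 111 at cycle 13 and 72.6 to 141 in late cycle 14. All 4 were higher by 2-fold or more in late cycle 14 than in cycle 8.

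Inside inv, 2 sites near its lower end had almost no coverage at cycle 8. At 7362745 it was 3.70 (5 reads, 1.2 to 8.65), 83.2 and 126 in order of stage, and at 7363124 it was 11.1, 88.0 and 107. Outside that end, 7357047 had 54.1, 254 and 290 and was in all 3 lists. The site at 7385968, also inside inv, went the other way with 73.4, 22.8 and 20.0, a log2 ratio of late cycle 14 over cycle 8 of -1.87 (-2.47 to -1.30). It was in the cycle 8 list only and was the only site of this window that was lower by 2-fold or more.

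nkd encodes Naked cuticle, an inhibitor that binds Dishevelled and limits the response to Wingless. Its start is used here at 19038431 on chr3L, with transcription towards lower coordinates. No span of nkd was at hand. The start was placed from the study's distances between peaks and the nkd start, with the side of the peaks inferred. It had the highest coverage of the 4 loci. At 19037702, 729 bp downstream of the start and labelled 5' untranslated, coverage was 1115 at cycle 8, 2168 at cycle 13 and 2455 in late cycle 14, higher than 96.5%, 98.1% and 98.2% of all sites. At 19035935, an intronic position 2496 bp downstream, it was 719, 1972 and 2361. The log2 ratios of late cycle 14 over cycle 8 were 1.14 (1.05 to 1.22) and 1.72 (1.61 to 1.82). With copies counted once, and scaled to the distinct reads of each library, they were -0.70 and -0.27. The sites then held 299 and 300 distinct reads in late cycle 14 of the 300 possible, against 214 and 159 at cycle 8.

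Around these lay further nkd sites. At 19037432, labelled coding and 270 bp from the strongest site, coverage was 706, 1139 and 1305 in order of stage. Only the late cycle 14 list held it as a peak of its own, yet the wide intervals of the strongest peak covered its centre at cycle 8 and cycle 13, so that this is a split of 1 peak rather than a site without coverage. It was the only nkd site within 2-fold between late cycle 14 and cycle 8, with a log2 ratio of 0.89. At 19037057, an intronic site in all 3 lists, coverage was 156, 419 and 618, a log2 ratio of 1.99. Its peak heights in the deposited lists were lower, 103, 257 and 506.

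Downstream in nkd, 2 intronic sites were all but absent at cycle 8. At 19026832, 11599 bp from the start, coverage was 1.48 (2 reads, 0.18 to 5.35) at cycle 8, 205 at cycle 13 and 597 in late cycle 14. At 19029377, 9054 bp from the start, it was 13.3 (7.90 to 21.1), 190 and 554. At the centre of 19026832 the log2 ratio of late cycle 14 over cycle 8 was 8.65 (6.80 to 11.7) from the reads as counted and 8.07 with the 2 reads taken as 3, the floor used for every ratio here. At 19029377 it was 5.38 (4.71 to 6.14). Over 300 bp the ratios were 6.38 and 4.76. These 2 sites were also higher by 2-fold or more in late cycle 14 than in cycle 13, with log2 ratios of 1.54 and 1.55. Under the same scaling to 10000000 reads, only 2 other sites of the 48 passed that bound, 18975060 at hh with 1.13 and 7415898 upstream of en with 1.11. The other 3 nkd sites outside the cycle 8 list, at 19025095, 19034613 and 19035334, had 17.8 to 28.9 at cycle 8 and 60.6 to 153 in late cycle 14.

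The only nkd site upstream of the start was also the only lower one. At 19041535, 3104 bp upstream, coverage was 309 at cycle 8, 90.1 at cycle 13 and 42.3 in late cycle 14, a log2 ratio of late cycle 14 over cycle 8 of -2.87 (-3.24 to -2.51). At cycle 8 it was the fourth highest site of the locus, and in late cycle 14 the lowest. Of the 9 downstream sites, 8 were higher by 2-fold or more and 0 were lower.

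The sites nearest the starts of the 4 genes with a start at hand differed in how much they held at cycle 8. In order of stage, coverage was 71.1, 261 and 285 at wg, 18.5, 121 and 192 at hh, 2.22, 72.6 and 127 at en, and 1115, 2168 and 2455 at nkd. Those of wg and nkd were in all 3 lists, and those of hh and en only in the later 2. Of the 4, only the nkd site was the strongest of its locus, and it lay farther from its start than the others.

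Between the sites, coverage was higher at the later stages at wg, while at the other loci it differed little. Mean coverage more than 500 bp from any site was 6.67, 7.35 and 8.44 at wg, in order of stage, 6.37, 6.14 and 6.23 at hh, 6.34, 5.76 and 6.32 at inv and en, and 5.71, 5.37 and 5.94 at nkd. Relative to the median of the arms, which was itself lower at the later stages, these means were 1.5, 1.98 and 2.46 times that median at wg, 1.43, 1.65 and 1.81 times at hh, 1.43, 1.55 and 1.84 times at inv and en, and 1.28, 1.45 and 1.73 times at nkd. These values differ far less between stages than the sites do.

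The windows bound the counts. The nearest sites outside them were at 3132 and 4862 bp from the wg window, 990 and 464 bp from the hh window, 10888 and 4396 bp from the inv and en window, and 52159 and 1797 bp from the nkd window. Of these 8, 6 were lower in late cycle 14 than in cycle 8, with log2 ratios of -3.58 to -0.48. The exceptions were 7291868 beyond the wg window, with 69.6, 277 and 417 in order of stage, and 7434396 beyond the en side, with 48.2, 415 and 701. The site at 7434396 was thus higher in late cycle 14 than any of the 13 sites inside the inv and en window. Just inside the same edges lay 7299592 of wg, with 19.3, 84.8 and 120, and 7424979 of en, with 7.41, 57.2 and 72.6.

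Other genes of the segment polarity class and of the Wingless and Hedgehog pathways were taken from a list of 24, of which 12 had a dm3 position at hand. Within 5000 bp of them lay 71 sites, of which 40 (56.3%) were higher and 14 (19.7%) lower by 2-fold or more in late cycle 14 than in cycle 8, with a median log2 ratio of 1.2. Of all sites, 34.3% were higher and 39.6% lower. At ptc, which encodes the Hedgehog receptor, 8 of 9 sites were higher and 0 lower, and summed coverage was 3064, 7125 and 8402 in order of stage. At gsb, a paired-type transcription factor gene of the same class, all 3 sites were higher, with 240, 1119 and 1779, and at cos, a kinesin-like component of Hedgehog signalling, 5 of 6 were higher, with 568, 2375 and 3225. By contrast arm, the β-catenin of the Wingless pathway, had 0 higher and 4 lower of 6 sites, with 2964, 2306 and 2236. At sgg, the kinase that acts on it, summed coverage was 839, 670 and 460 although 2 of 4 sites were higher. The summed log2 ratios of the other 7 genes ran between -0.09 at Wnt4, a Wnt ligand gene, and 1.90 at Apc2, a gene of the complex that breaks down Armadillo.

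The primary pair-rule genes eve, h and run, which act before the segment polarity genes, had higher coverage per site at cycle 8. The median site of wg, hh, inv and en, and nkd together had 64.8 at that stage, against 376 at these genes. The cycle 8 list held 50% of the former sites and 79.5% of the latter, so the 2 medians compare unlike sets of sites. Among the sites of the 5 genes, those in that list had a median of 145 and the others 18.9. Within 10000 bp of the pair-rule genes lay 39 sites, of which 5 (12.8%) were higher and 12 (30.8%) lower by 2-fold or more in late cycle 14 than in cycle 8. The other 22 lay within 2-fold. Over all sites 34.3% were higher and 39.6% lower, so the share of lower pair-rule sites was under that of all sites. Summed coverage in order of stage was 14464, 13278 and 9817 at eve, 12492, 13918 and 12698 at h, and 8684, 6230 and 5181 at run. The log2 ratios of the sums of late cycle 14 over cycle 8 were -0.56 (-0.59 to -0.53) at eve, 0.02 (-0.01 to 0.05) at h and -0.75 (-0.78 to -0.71) at run. Each of these lies below the ratio of any of the 4 segment polarity loci. The spans compared differ in length, so that the sums are read within a gene and not between genes.

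**Figure D4:**
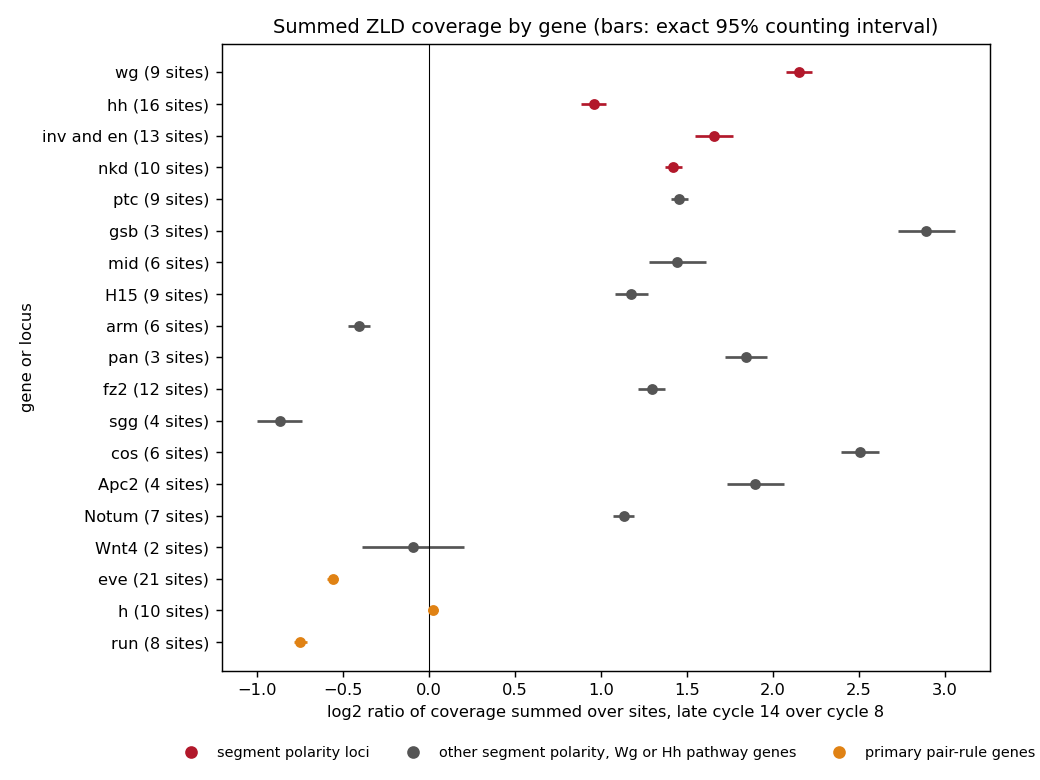
The log2 ratio of coverage summed over sites, late cycle 14 over cycle 8 (horizontal axis), for the 4 segment polarity loci (red), 12 other genes of the class or of the Wingless and Hedgehog pathways (grey) and 3 primary pair-rule genes (orange); bars are exact 95% counting intervals. The red points lie between 0.96 and 2.15 and the orange points between -0.75 and 0.02.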

How the data were processed

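Per the authors' notes, Bowtie 0.12.5 placed the reads on dm3, reads were lengthened to 150 bp, totals were brought to 10000000 per library, and Grizzly Peak called peaks in each library on its own. The deposited lists give each peak's interval and a height, which is a coverage signal; the deposited read files hold 1 line per mapped read, 25 bp long. Here midpoints of deposited intervals no more than 150 bp apart were joined, and a site was centred where the scaled coverage of the 3 libraries together peaked, searching 150 bp to either side. Coverage was counted with copies included, in Python 3.11.15 with numpy 2.4.6, scipy 1.17.1 and pandas 2.3.3. Reads were not divided between close sites, so a centre may also count reads of its neighbour. For log2 ratios, a count of fewer than 3 reads was taken as 3. No input library was used, and no test between stages was made, since there was 1 library per stage; the 2-fold bound is a size and not a test. Gene positions and the labels of some peaks (intergenic, intronic, coding, 5' untranslated) come from the study's gene and peak tables. No sequence is shown because dm3 sequence was not used here.

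The members, the gene lists and the tests were chosen with earlier results of these data known. The sites given with values are, for each locus, the strongest at each stage and over all stages, those of the cycle 8 list at or above the median, those nearest a start within 1000 bp, and those with the largest and smallest ratios; other sites given with values were chosen after their values were seen. The counting of reads and the ratios with their intervals were run on simulated data with known answers. The simulated read numbers were drawn independently, without copies, and the joining of peaks was not checked in this way. The alternatives were other joining distances, other centres, reads over 300 bp, other scalings, copies counted once, background subtracted and weak sites left out.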

Additional observations from a re-analysis of the deposited data

How the results depend on the processing

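Weak sites were left out where the highest of the 3 stage values fell below the median, over all sites, of that highest value. Of the 48 sites, 27 were kept, and 8107 of all sites. With only the 27, 22 were higher and 2 lower in late cycle 14 than in cycle 8, against 39.5% and 33.3% of the 8107. At cycle 13, 21 were higher and 2 lower than in cycle 8, against 37.4% and 20.6%. In late cycle 14, 2 were lower than in cycle 13, against 25.1% of the 8107, and cycle 13 lay between at 24, against 79.1%. Under the same cut the pathway genes held 29 higher and 7 lower sites. The summed log2 ratios were then 1.37 at hh and 1.46 at inv and en. These counts are smaller because fewer sites were kept. Scaling by the median of ratios raised every log2 ratio of late cycle 14 over cycle 8 by 0.19 and scaling by reads outside sites by 0.30: the summed ratios were then 2.35 and 2.46 at wg, 1.15 and 1.26 at hh, 1.85 and 1.96 at inv and en, and 1.62 and 1.72 at nkd, the pair-rule genes had 8 higher sites under both, and 10 sites were higher in late cycle 14 than in cycle 13 under the first. With 1 read per position and strand, 29 sites were higher and 6 lower, 1 was higher in late cycle 14 than in cycle 13, the pair-rule genes had 3 higher sites, and the summed ratios were 0.86 at wg, 0.61 at hh and 0.28 at nkd. Strong sites of hh and nkd then changed sign, to -0.13 at hh 18955775, -0.27 at nkd 19035935 and -0.70 at nkd 19037702. The sites with the highest coverage over all stages at wg, 7312173, and at inv and en, 7398780, did not, with 0.71 and 0.60. In that count 1 member at cycle 8, 18 at cycle 13 and 14 in late cycle 14 held 200 or more distinct reads, of at most 300. Summed ratios were 1.03 at hh and 1.34 at nkd over 300 bp, 1.52 at inv and en with the highest coverage within 75 bp, and 1.55 at nkd with midpoints joined within 300 bp. The cause of these shifts was not tested. Under every alternative run, more of the sites of the 5 genes were higher than lower in late cycle 14 compared with cycle 8, and the 4 summed ratios stayed above 0. No paired analysis was possible because there was 1 library per stage.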

Other observations

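Adjacent sites of the 4 loci were compared in the ratio of late cycle 14 to cycle 8. Among their 44 pairs, 26 differed by 2-fold or more in that ratio (59.1%, against 66.5% of the 16186 pairs of adjacent sites in the genome). In 10 pairs, 1 site was higher and the other lower by 2-fold or more (22.7%, against 14.0% of all pairs). The median distance between adjacent sites was 1385 bp at these loci, against 3443 bp over all pairs. Of the 10 pairs, 7 were at hh, 1 at wg, 1 at inv and en and 1 at nkd. The closest such pair lay 464 bp apart, upstream of the hh start. That pair, and those of 18957950 with its neighbours on both sides, rest on values at the site centres. Over 300 bp the log2 ratio was -0.31 at 18974596 and -1.0, just inside the bound, at 18957950, so these pairs then fall short of it. The largest gap between adjacent sites within a locus was 22844 bp, inside inv, between 7363124 and 7385968.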
